A study of Rattus norvegicus with 6 samples.

Results

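Cytosolic ribosomal proteins are the protein subunits of the ribosome that translates mRNA in the cytoplasm. Their genes were taken by symbol from the array annotation. A symbol had to be Rpl or Rps followed by a digit, or Rplp0, Rplp1, Rplp2 or Rpsa, and the kinases named Rps6k and symbols starting Rps19bp were left out. Only probe sets naming exactly 1 gene were used, and a gene with several such probe sets counted once, through the probe set whose mean signal was highest. This gave 50 of the 14217 genes named on the array. They were 29 genes of the large subunit, 13 of the small subunit, 6 paralogs and 2 symbols of pseudogenes. The cells were CD11b+CD163+ macrophages sorted by flow cytometry from the right brain hemisphere of adult male Sprague-Dawley rats, 1 array per rat and 3 rats per group. Ischemic rats 64, 65 and 66 had the right middle cerebral artery occluded for 1 h, followed by 16 h of reperfusion. Control rats 63, 68 and 69 had no ischemia. Values are on the log2 scale, as made by the authors with RMA (robust multi-array average), and every fold change is ischemia minus control on that scale with its standard error (SE) from limma. The words rose and fell are kept for genes with an adjusted p under 0.01, taken over the 9928 genes that passed a filter on signal. A level on this array depends on the probes, so levels were compared between rats and not between genes as amounts of mRNA.

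The ribosome joins a small subunit, which reads the mRNA, to a large subunit, which forms the peptide bond, and each subunit is built in the nucleolus from ribosomal RNA and ribosomal proteins in equal numbers. Most ribosomal protein mRNAs begin with a C and an uninterrupted run of pyrimidines, the terminal oligopyrimidine (TOP) tract. Through this tract the kinase complex mTORC1 and the RNA-binding protein LARP1 control how strongly these mRNAs are translated, so that mRNA level and protein output can differ. Several of these genes are also used as references in qRT-PCR, and their mRNAs are abundant in most cells.

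The start sites of 8 members are shown. They are genes among those that differed most between the groups, and genes at the upper end of the array's scale. Each line gives 60 bases before and 15 bases from the start site of the RefSeq promoter (build GRCr8), 5′ to 3′ on the strand of the gene. Capitals mark a C followed by at least 4 C or T within 3 bases of that start, and lines without capitals have no such tract there.
Rpl39, chrX:121195882-121195956, minus strand: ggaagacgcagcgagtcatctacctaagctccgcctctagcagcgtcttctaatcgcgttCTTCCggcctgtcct
Rpl34, chr2:221962269-221962343, minus strand: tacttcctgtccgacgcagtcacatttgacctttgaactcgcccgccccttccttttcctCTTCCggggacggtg
Rps24, chr16:96457-96531, plus strand: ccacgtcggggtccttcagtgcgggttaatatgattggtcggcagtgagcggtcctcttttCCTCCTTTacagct
Rpl7l1, chr9:21695658-21695732, plus strand: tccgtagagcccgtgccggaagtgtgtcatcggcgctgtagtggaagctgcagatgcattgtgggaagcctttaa
Rps27l, chr8:76443598-76443672, plus strand: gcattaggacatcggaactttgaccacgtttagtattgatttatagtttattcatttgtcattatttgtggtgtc
Rpl19, chr10:83519004-83519078, plus strand: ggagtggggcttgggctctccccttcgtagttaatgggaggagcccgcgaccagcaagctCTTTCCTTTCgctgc
Rps23, chr2:23814457-23814531, plus strand: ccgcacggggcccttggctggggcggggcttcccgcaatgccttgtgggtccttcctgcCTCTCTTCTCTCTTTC
Rps3a, chr2:173827028-173827102, minus strand: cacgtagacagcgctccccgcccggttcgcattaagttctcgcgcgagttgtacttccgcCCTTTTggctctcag
The tract of *Rps23* runs on past the end of its window. *Rpl7l1* and *Rps27l*, both paralogs, had no tract within 3 bases of the start.

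Promoters of 300 bases, 250 before and 50 from the start, were found in RefSeq for 43 of the 50 members, 41 by gene ID and the others by symbol. A tract within 3 bases of the start was present in 19 of 43 (44.2%), against 11.2% of all 33469 promoters, and a tract exactly at the start in 12 (27.9%), against 2.63%. In 65 promoters of mitochondrial ribosomal proteins these shares were 16.9% and 3.08%. The letters CCGGAA, the core bound by ETS factors, were found on either strand in 17 member promoters (39.5%), against 15.0% of all promoters, 17.7% of the 21851 protein-coding ones and 50.8% of the mitochondrial ribosomal protein ones. The letters GGGCGG, the GC box, were in 26 (60.5%), against 33.1%, 41.8% and 46.2% of these 3 sets. The letters AAGATGG were in 8 (18.6%), against 7.01%, 7.29% and 26.2%, and the E-box CACGTG was in 3 (6.98%), against 6.42%, 7.02% and 9.23%. The pyrimidine tract overlaps a reverse-strand CCGGAA in *Rpl39*, *Rpl34* and *Rpl23*, of which *Rpl23* was not past the test (0.34, adjusted p = 0.315 by limma). The 19 tested members with a tract had a median log2 fold change of 0.40 and the 21 without one had a median of 0.45. Without control 63 these medians were 0.13 and 0.16. The start used in these promoters was the RefSeq gene start for 19339 of the 33469. For the rest these positions differed, so the tract counts hold for the promoter starts as used. A match is a description of letters only, and start sites taken from RefSeq may lie a few bases from those used in these cells.

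Array medians lay between 7.82 and 7.87 in ischemic rats and between 7.82 and 7.895 in controls. Control 63 stood apart at the upper end of the scale: its highest value was 13.85, against 14.88 to 14.95 in ischemic rats and 14.94 to 14.96 in the other controls, and the added cre hybridization control read 13.88 in it, against 14.98 to 15.03 on the 5 other arrays. The 3′ minus 5′ difference of actin, a measure of RNA quality, was 0.17 to 0.24 in ischemic rats and 0.058 to 0.073 in controls. The sorting marker *Cd163* was at 14.11, 14.02 and 13.38 in ischemic rats 64, 65 and 66 and at 12.63, 13.86 and 13.41 in controls 63, 68 and 69. Of 10 tested markers of border-associated macrophages none was called by limma. At an unadjusted p under 0.05, 6 of them were lower, against 1809 of all 9928 genes. Their median fold change was -0.71, or -0.99 without control 63, and 1 of the 10 was positive. Of 8 tested monocyte markers 7 rose, and their median level was 12.09 to 12.82 in ischemic rats and 8.40 to 8.72 in controls. The monocyte list as drawn up named *Itgam*, which encodes the CD11b used for sorting, and *Vcan* and *Fn1*. The authors report *Vcan* and *Fn1* among the genes most raised in these CD163+ cells after ischemia. The list was therefore not specific to monocytes. Of 6 tested granulocyte markers 3 rose, with a median level of 8.0 to 9.21 in ischemic rats and 6.15 to 6.83 in controls. By flow cytometry, the authors found a small share of granulocytes among CD163+ cells sorted after ischemia. Control 63 also had higher median levels of 4 endothelial markers (10.24, against 8.27 and 8.50 in controls 68 and 69), of 5 astrocyte markers (9.95, against 8.03 and 7.68) and of 8 oligodendrocyte markers (10.70, against 9.83 and 9.30). The oligodendrocyte markers also differed between the groups: 3 of 8 fell, the median fold change was -1.82, and the median level was 8.02 to 9.56 in ischemic rats and 9.30 to 10.70 in controls. Without control 63, 1 of the 8 fell and the median was -1.33. The part of these markers and of RNA quality in the ribosomal protein values was not tested. In such bulk samples a change in the mix of cells and a change in RNA per cell cannot be told apart.

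After ischemia, 3 ribosomal protein genes rose and none fell. They were *Rpl39* and *Rpl34* of the large subunit and the paralog *Rpl7l1*, and no member changed by more than 2 log2 units. The 46 members kept by the filter had a median log2 fold change of 0.40, against 0.10 over all genes tested, and ranged between -0.65 for *Rpl37-ps2* and 1.27 for *Rpl39*. All 50 members, without the filter, had a median of 0.39. The 3 rises are 6.52% of the 46 members tested, whereas 16.8% of all 9928 genes tested rose and 5.99% fell, 22.8% in either direction. At an adjusted p under 0.05, 13 members (28.3%) were higher and 1 was lower, against 27.4% and 13.9% of all genes. No member fell by limma at an adjusted p under 0.01. At an unadjusted p under 0.05, 1 member was lower, against 1809 of all 9928 genes. The same member was lower at an adjusted p under 0.01 with array weights, against 1309 of all genes. The 3 ischemic rats all lay above the 3 controls for 27 members (58.7%), against 35.7% of all genes, and below them for 1, against 19.9%. With 3 rats a group, 0.1 is the smallest p that exact permutation of the rats can reach for a single gene (two-sided).

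**Figure D1:**
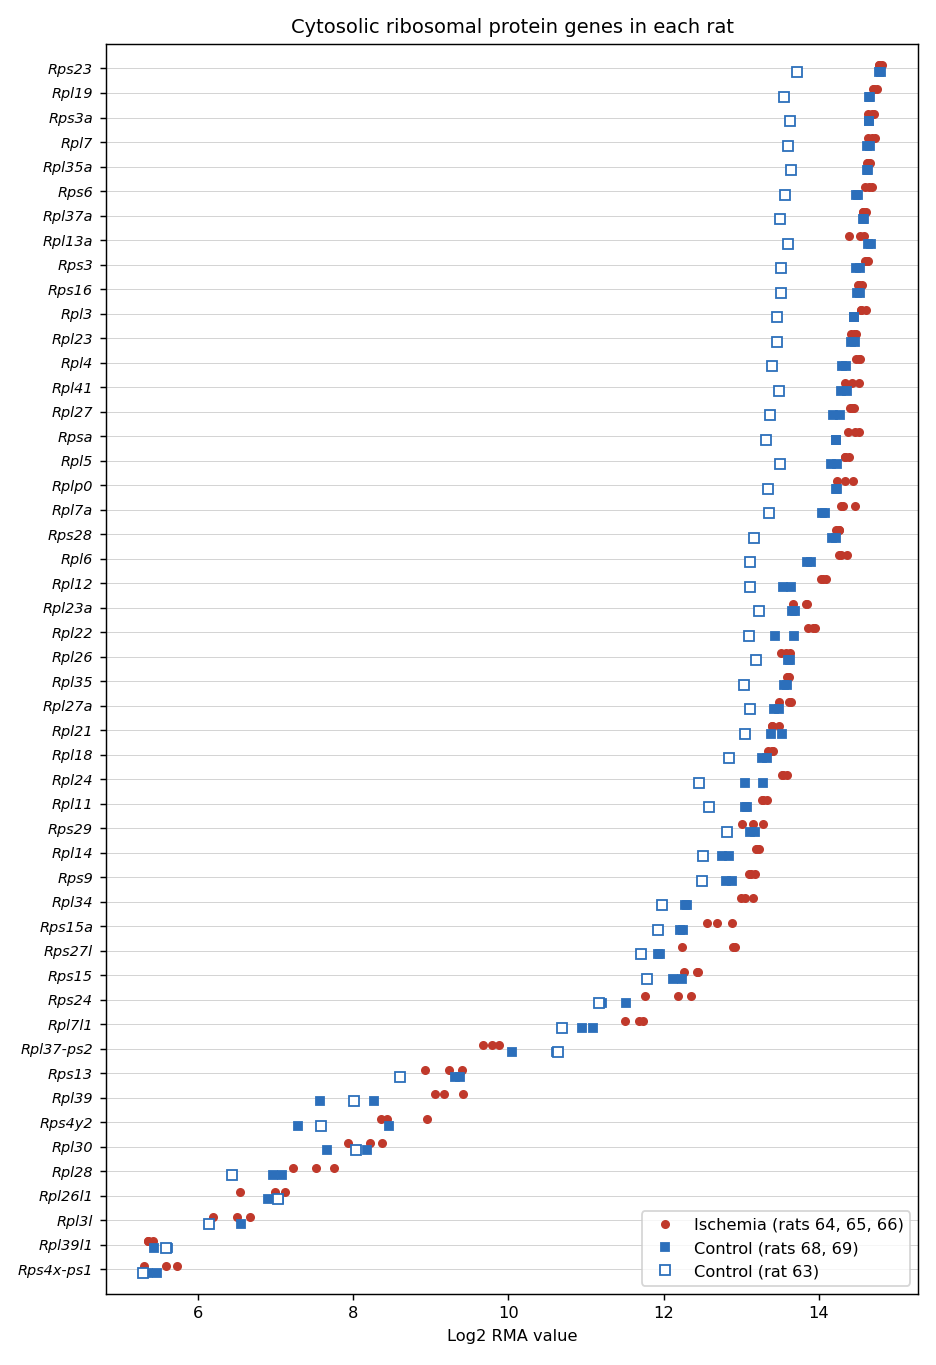
Log2 RMA values (horizontal axis) of all 50 ribosomal protein genes (rows, ordered by their mean), with 1 point per rat: red circles are ischemic rats, filled blue squares controls 68 and 69, and open squares control 63. In the members of the top rows control 63 stands about 1 log2 unit to the left of all other rats, which lie close together.

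The size of the small differences of most members rested on control 63. All 3 ischemic rats lay above controls 68 and 69 for 27 members (58.7%), against 37.4% of all genes. Of the 46 members tested, 42 had their lowest value of all 6 rats in control 63. Control 63 lay below the mean of controls 68 and 69 in 43 members, and in 7450 of all 9928 genes. The median gap was -0.64 in the members and -0.17 over all genes. Relative to the mean of the 3 controls, the median over the members was 0.39, 0.44 and 0.39 in ischemic rats 64, 65 and 66 and -0.43, 0.23 and 0.22 in controls 63, 68 and 69. Without control 63 the median log2 fold change of the 46 members was 0.14, against 0.054 over all genes tested. The number of members above 0 was 45 of 46 (97.8%) with all 6 rats, against 57.2% of all genes. It was 40 of 46 (87.0%) without control 63, against 53.6% of all genes. With quantile normalization repeated it was 41, and with the arrays centred on qRT-PCR reference genes 35. The medians of all genes in these fits were 0.018 and -0.17. The 8 reference genes used for centring included *Pgk1*, which itself rose by 1.47 in the main fit. In only 13 members was the ischemic mean more than 0.3 above the mean of controls 68 and 69. Against the mean of all 3 controls this number was 35, with no such count made over all genes. Without control 63, 2 members rose (4.35%, against 10.1% of all genes) and none fell (3.82% of all genes did), with 1 lower at an unadjusted p under 0.05. The rises were *Rpl39* (1.30, SE 0.23, adjusted p = 0.009 by limma) and *Rpl34* (0.78, SE 0.12, adjusted p = 0.0058 by limma).

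The gap of control 63 grew with the level of the probe set. For the 20 members with a mean of 14 or over, control 63 was below the mean of controls 68 and 69 by a median difference of -0.99 log2 units (range -1.1 to -0.70). For the 12 members between 13 and 14 the median difference was -0.46, and for the 8 between 11 and 13 it was -0.30. The same gap was present in genes that are not ribosomal: it was -0.95 for the 31 other genes at 14 or over, -0.51 for 177 between 13 and 14 and -0.21 for 1962 between 11 and 13. Ischemic rats, in contrast, differed from controls 68 and 69 least in the members of highest signal. That difference had a median of 0.085 (range -0.15 to 0.30) in the 20 members at 14 or over, 0.12 (-0.046 to 0.46) in the 12 between 13 and 14, and 0.55 (0.20 to 0.78) in the 8 between 11 and 13. For other genes in these 3 ranges of level it was -0.099, -0.039 and 0.15. In the members of highest signal the ischemic rats and controls 68 and 69 read close to the highest values of their arrays, and whether such probe sets could still show a rise was not tested.

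**Figure D2:**
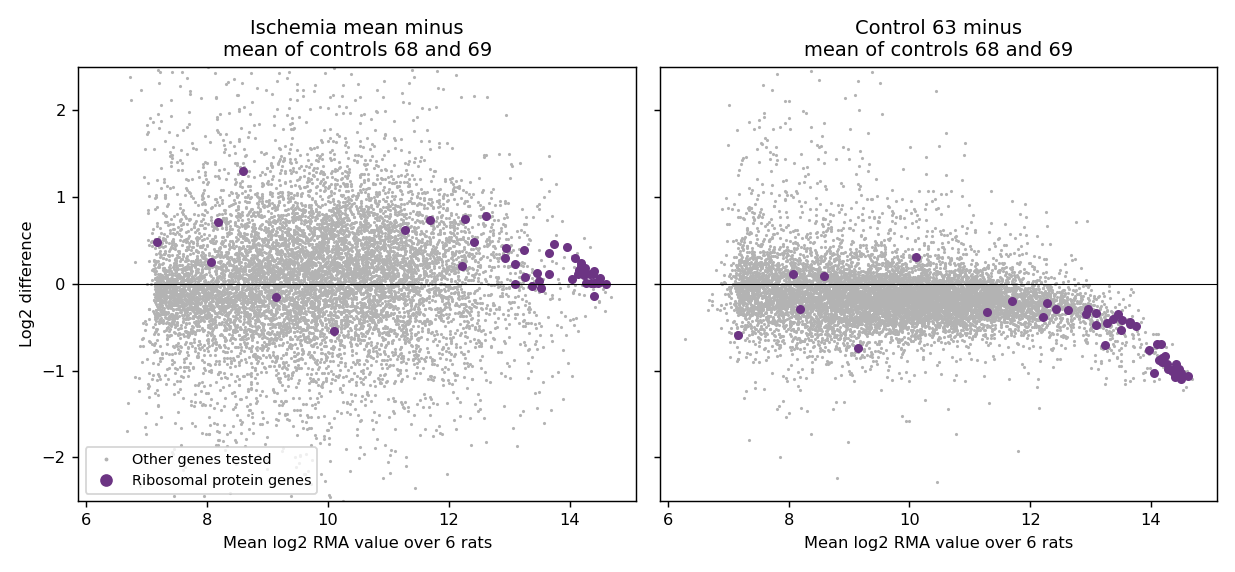
Log2 differences (vertical axes) against the mean log2 RMA value over the 6 rats (horizontal axes) for the mean of the 3 ischemic rats (left) and for control 63 (right), each minus the mean of controls 68 and 69. Purple points are the 46 ribosomal protein genes tested and grey points the other genes tested, of which those beyond 2.5 either way are not drawn; the purple points of highest level lie near 0 on the left and near -1 on the right.

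*Rpl39*, which encodes a small protein lining the exit tunnel of the large subunit, had the largest fold change of the members tested. It read 9.17, 9.42 and 9.06 in ischemic rats 64, 65 and 66, against 8.01, 7.57 and 8.27 in controls 63, 68 and 69. The groups did not overlap, and control 63 lay between the other controls. Its fold change was 1.27 (SE 0.20, adjusted p = 0.0021 by limma). *Rpl34*, another protein of the large subunit, read 12.997, 13.15 and 13.05 in ischemic rats, against 11.98, 12.30 and 12.27 in controls. The ischemic rats again lay above all controls, with control 63 the lowest, and the fold change was 0.88 (SE 0.14, adjusted p = 0.0022 by limma). Without ischemic rat 65 neither gene was past the test (adjusted p = 0.0109 for *Rpl39* and 0.0138 for *Rpl34* by limma). No member was past it in that fit. At an unadjusted p under 0.05, 13 members were higher, with no such count made over all genes. Rises were fewer over all genes too: 6.86% without ischemic rat 65, against 16.8% with all rats. *Rpl39* was also not past the test with the arrays centred on reference genes (1.0, adjusted p = 0.013 by limma), where 7.68% of all genes rose.

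Most of the other large subunit genes lay within a narrow range, at fold changes of 0.095 to 0.68. *Rpl3*, which reaches toward the peptidyl transferase center, read 14.61, 14.54 and 14.54 in ischemic rats, against 13.46, 14.45 and 14.45 in controls. Its fold change was 0.45 (SE 0.26, adjusted p = 0.20) with all rats and 0.11 (SE 0.11, adjusted p = 0.454) without control 63, both by limma. *Rpl5* and *Rpl11*, which bind the 5S ribosomal RNA and can hold the ubiquitin ligase MDM2, were at 0.39 (adjusted p = 0.146) and 0.38 (adjusted p = 0.0872). Leaving out control 63 gave 0.16 for *Rpl5* and 0.23 for *Rpl11*. *Rpl22* was at 0.51 (adjusted p = 0.0398) and *Rpl23* at 0.34 (adjusted p = 0.315), both by limma. *Rpl13a*, which in human monocytes also joins a complex that silences inflammatory mRNAs, read 14.58, 14.53 and 14.39 in ischemic rats, against 13.60, 14.63 and 14.66 in controls. The ischemic rats thus lay above control 63 and below the other controls, and the fold change was 0.20 (SE 0.27, adjusted p = 0.579) with all rats and -0.15 (SE 0.12, adjusted p = 0.378) without control 63. *Rpl19*, *Rpl7* and *Rpl35a*, 3 of the 5 members of highest signal, were at 0.43, 0.39 and 0.34 with all rats and at 0.069, 0.039 and 0.012 without control 63. *Rpl28*, at the low end of the scale, was at 7.23, 7.53 and 7.76 in ischemic rats, against 6.44, 6.97 and 7.08 in controls, with a fold change of 0.67 (SE 0.21, adjusted p = 0.0336 by limma).

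The stalk of the large subunit, which recruits translation factors, was represented by *Rplp0*, its base. *Rplp0* read 14.33, 14.44 and 14.23 in ischemic rats, against 13.35, 14.24 and 14.22 in controls. Controls 68 and 69 lay close to the lowest ischemic rat, ischemic rat 66, and the fold change was 0.40 (SE 0.24, adjusted p = 0.21 by limma), or 0.11 without control 63.

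None of the 13 small subunit genes was past the test by limma, and 3 of them were higher at an adjusted p under 0.05. *Rps23*, which sits at the decoding center, read 14.81, 14.77 and 14.77 in ischemic rats, against 13.72, 14.78 and 14.80 in controls. All rats but control 63 lay within a narrow range, and the fold change was 0.35 (SE 0.27, adjusted p = 0.337) with all rats and -0.0084 (SE 0.11, adjusted p = 0.958) without control 63. *Rps6*, the substrate of the S6 kinases downstream of mTORC1, read 14.64, 14.68 and 14.60 in ischemic rats, against 13.57, 14.51 and 14.48 in controls. All ischemic rats lay above all controls, by a fold change of 0.45 (SE 0.25, adjusted p = 0.171), or 0.14 (SE 0.11, adjusted p = 0.348) without control 63. *Rps3*, at the mRNA entry channel, was at 0.44 (adjusted p = 0.203), *Rps3a* at 0.37 (adjusted p = 0.295) and *Rps28* at 0.40 (adjusted p = 0.263). *Rpsa*, also known as the laminin receptor precursor, was at 0.53 (adjusted p = 0.11). The small subunit gene of largest fold change, *Rps24*, was singled out after its values were seen. It encodes a protein mutated in some patients with Diamond-Blackfan anemia. It read 11.76, 12.19 and 12.35 in ischemic rats, against 11.16, 11.20 and 11.51 in controls, so the groups did not overlap and control 63 was close to control 68. Its fold change of 0.80 (SE 0.18) had an adjusted p of 0.0103 by limma, just outside the threshold. Without control 63 it was 0.74 (adjusted p = 0.0348).

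**Figure D3:**
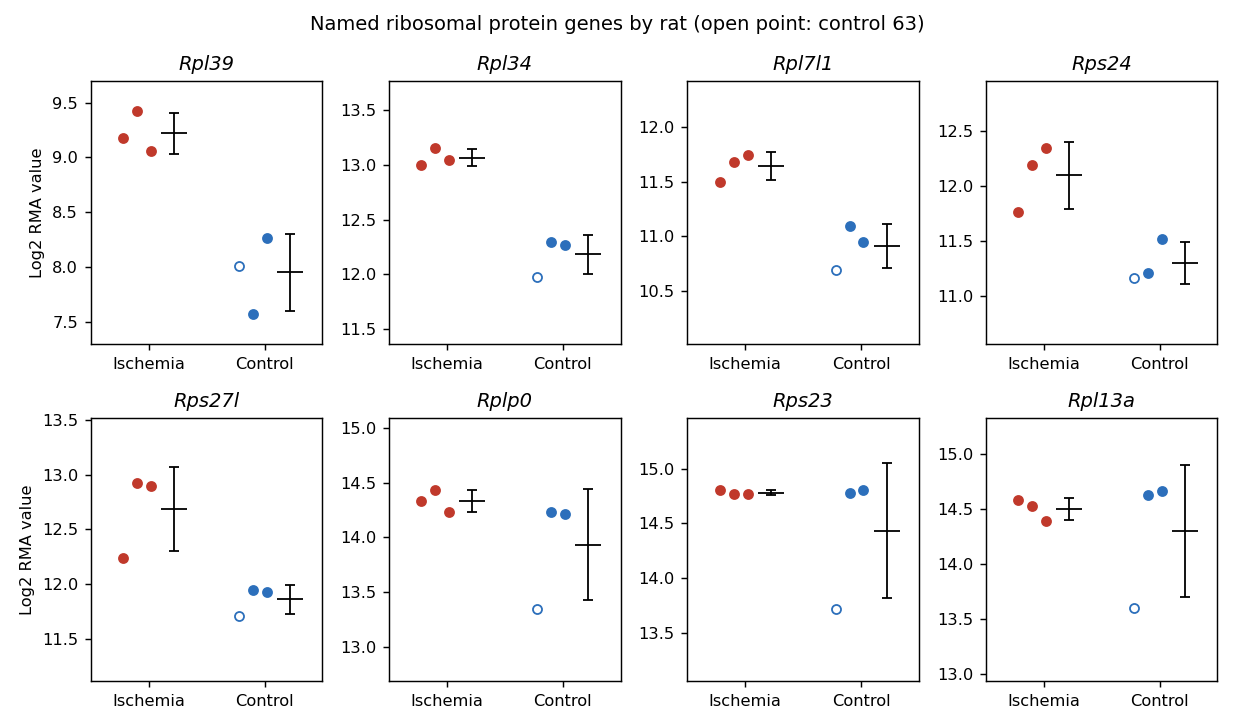
Log2 RMA values (vertical axes, all of the same length) of 8 members, with 1 point per rat and the mean ± SD beside them (n = 3 per group). Control 63 is drawn open; it lies among or close to the other controls in *Rpl39* and *Rps24* and about 1 log2 unit below them in *Rps23* and *Rpl13a*.

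The paralogs differed among themselves in signal. *Rpl7l1*, a paralog of *Rpl7*, rose: it read 11.50, 11.68 and 11.74 in ischemic rats, against 10.69, 11.09 and 10.94 in controls. The fold change was 0.73 (SE 0.15, adjusted p = 0.0064 by limma), but it was not past the test without control 63, 68 or 69 or ischemic rat 65 or 66 (adjusted p = 0.0102 to 0.0305), nor with the arrays centred on reference genes (0.46, adjusted p = 0.0216). Rises over all genes were fewer in these fits too, at 6.86% to 11.2%, against 16.8% in the main fit. *Rps27l*, a paralog of *Rps27* that p53 induces in human cells, read 12.24, 12.92 and 12.89 in ischemic rats, against 11.71, 11.95 and 11.93 in controls. Ischemic rat 64 lay closest to the controls, and the fold change was 0.82 (SE 0.20, adjusted p = 0.0129). *Rps4y2*, a paralog of *Rps4x*, was at 8.36, 8.44 and 8.96 in ischemic rats, against 7.59, 8.46 and 7.30 in controls, which overlapped through control 68 (0.81, SE 0.30, adjusted p = 0.0621). *Rpl26l1*, *Rpl3l* and *Rpl39l1* did not pass the filter of 7.16. They read 6.54 to 7.12, 6.20 to 6.68 and 5.36 to 5.42 in ischemic rats, against 6.90 to 7.05, 6.14 to 6.56 and 5.43 to 5.62 in controls. *Rpl3l* is known as the muscle form of *Rpl3*. The pseudogene symbol *Rps4x-ps1* was also below the filter, at 5.31 to 5.73 in ischemic rats and 5.29 to 5.47 in controls. *Rpl37-ps2* was the only tested member with a negative fold change when all 6 rats were used. It read 9.88, 9.67 and 9.79 in ischemic rats, against 10.64, 10.04 and 10.61 in controls, and its fold change was -0.65 (SE 0.18, adjusted p = 0.0231 by limma). A pseudogene and its parent gene can hybridize to the same probes, so this value is uncertain.

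**Figure D4:**
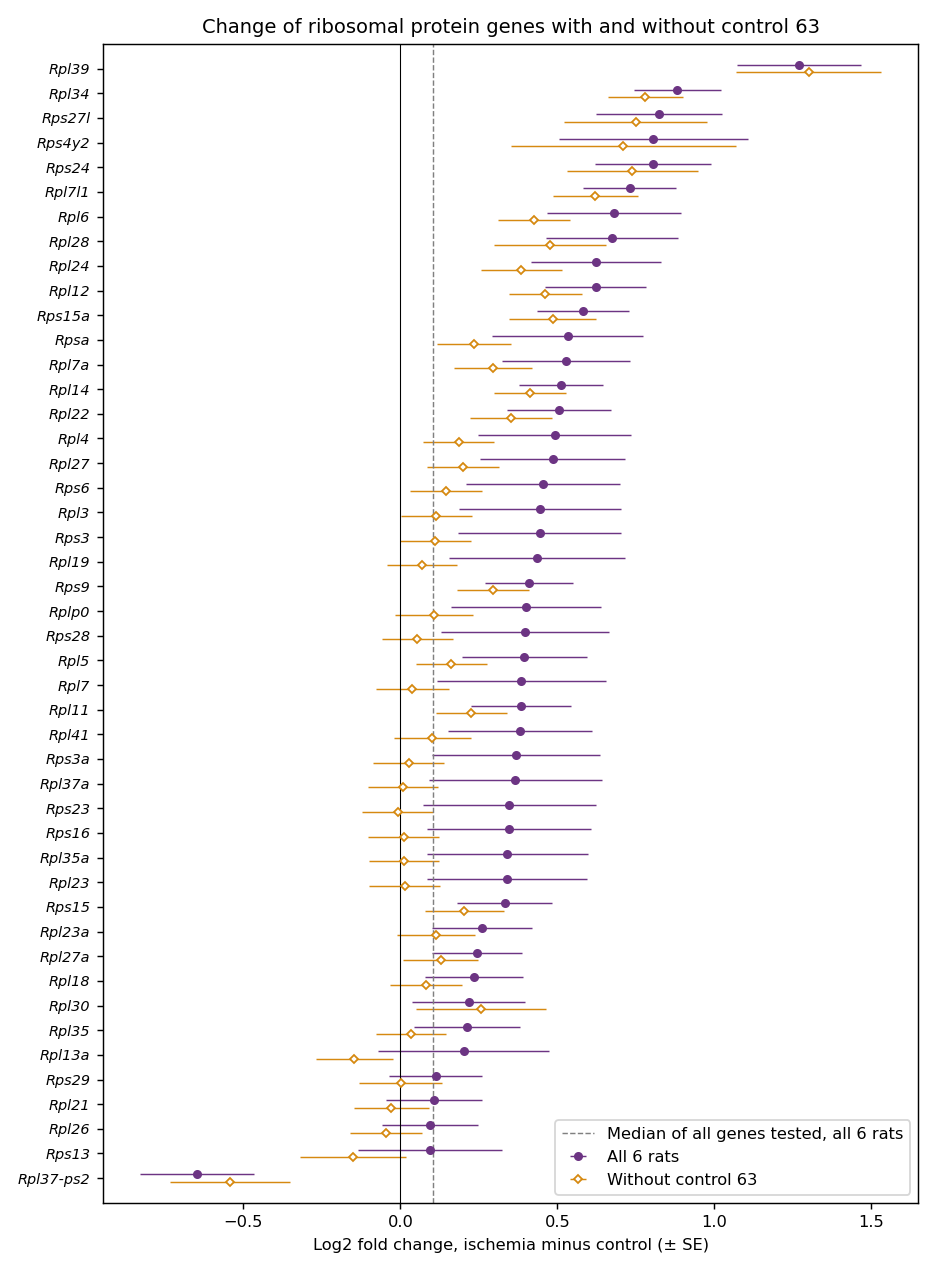
Log2 fold changes of the 46 members tested (horizontal axis, ischemia minus control, ± SE from limma), with all 6 rats (filled circles) and without control 63 (open diamonds). The open diamonds of *Rpl39*, *Rpl34*, *Rps27l* and *Rps24* stay at 0.74 or above, whereas 5 members change sign without control 63.

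Further probe sets gave a second reading for 6 members, tested over 19022 probe sets. The other probe set of *Rps24* read 9.19, 9.32 and 9.29 in ischemic rats, against 7.95, 7.55 and 8.05 in controls, so that the groups lay more than 1 log2 unit apart (1.42, SE 0.16, adjusted p = 0.000842 by limma; 1.47 without control 63). That of *Rpl7l1* was at 0.98 (SE 0.16, adjusted p = 0.00307) and that of *Rpl14* at 0.99 (SE 0.22, adjusted p = 0.0095), where the probe set of higher signal was at 0.51. In contrast, the second probe set of *Rpl3* was at 0.0084 (adjusted p = 0.972) and that of *Rpl7* at 0.46 (adjusted p = 0.0789). The 2 other probe sets of *Rpsa* were at 0.45 (adjusted p = 0.0608) and 0.20 (adjusted p = 0.269).

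The rule left out 36 probe sets that name several symbols, at least 1 of them a ribosomal protein gene and many of them with its pseudogenes. They were described as a group after the data were seen. All 36 had positive fold changes, with a median of 0.39 (range 0.029 to 1.43), and 3 were higher by limma (13.1% of all 19022 probe sets were). Their median level was 13.52, 13.62 and 13.68 in ischemic rats 64, 65 and 66, against 13.03, 13.42 and 13.38 in controls 63, 68 and 69. Without control 63 the median fold change was 0.21, 31 of 36 were positive and 1 was higher (7.33% of all probe sets were).

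Other genes of translation were set beside the members, with no test between the lists. *Rack1*, a ribosomal protein of the small subunit whose symbol falls outside the rule, was at 0.53 (SE 0.22, adjusted p = 0.0895 by limma), and 0.26 without control 63. Of 14 tested translation factors and other genes with TOP mRNAs, 5 rose and none fell, with a median of 0.43. Without control 63, 2 rose and the median was 0.25. The initiation factor subunit *Eif3l* (1.08, SE 0.22, adjusted p = 0.0063), the RNA-binding protein *Hnrnpa1* (0.70, SE 0.14, adjusted p = 0.0067), the elongation factor subunits *Eef1b2* (0.97, SE 0.15, adjusted p = 0.0021) and *Eef1d* (0.85, SE 0.13, adjusted p = 0.0022) and the translocation factor *Eef2* (0.53, SE 0.12, adjusted p = 0.0096, named after its value was seen) rose, while *Eef1a1* was at -0.15 (adjusted p = 0.622). *Eif3l*, *Hnrnpa1* and *Eef2* were not past the test without control 63 (adjusted p = 0.019, 0.0201 and 0.0211). Of 26 initiation factors 16 rose and none fell (median 0.85), and without control 63, 12 rose (median 0.82). *Eif3b*, a core subunit of eIF3, was at 1.68 (SE 0.17, adjusted p = 0.000473). Of 73 mitochondrial ribosomal proteins, which serve the ribosome inside mitochondria, 35 rose and none fell, with a median of 0.66. Without control 63, 13 of the 73 rose, with a median of 0.55. Of 49 nucleolar factors that assemble ribosomes 37 rose and none fell, with a median of 1.1, or 1.05 without control 63, where 32 rose. *Heatr3*, which brings RPL5 into the nucleus in human cells, was at 2.46 (SE 0.14, adjusted p = 6.74e-05), and *Bop1*, which acts in the assembly of the large subunit, at 2.03 (SE 0.18, adjusted p = 0.000339). The median probe set level of these nucleolar and mitochondrial lists, 10.53 and 10.40, was below that of the members tested, 13.65, and control 63 differed from the other controls in them by a median of -0.23 and -0.25, against -0.64 in the members. In these 4 lists no gene was lower by limma at an unadjusted p under 0.05 either, against 1809 of all 9928 genes.

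**Figure D5:**
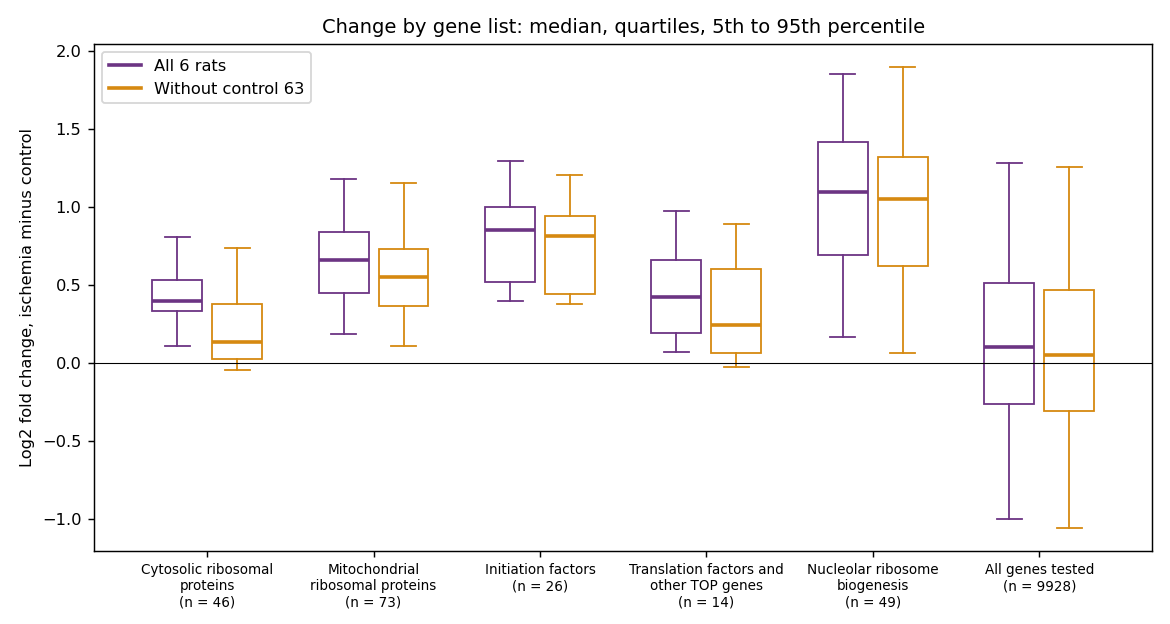
Log2 fold changes (vertical axis, ischemia minus control) of the genes tested in each list, with all 6 rats (purple) and without control 63 (orange): lines are medians, boxes quartiles and whiskers the 5th and 95th percentiles over genes. The median of the cytosolic ribosomal proteins is 0.40 with all rats and 0.14 without control 63, and that of nucleolar ribosome biogenesis is 1.1 and 1.05.

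Among 15 tested genes of mTORC1 and of the control of TOP mRNAs, 2 rose and 1 fell, close to the shares of all genes tested (16.8% rose and 5.99% fell). The translational repressor *Eif4ebp1* was at 0.86 (SE 0.18, adjusted p = 0.0076 by limma) and *Larp1* at 0.66 (SE 0.13, adjusted p = 0.0051). *Deptor*, an inhibitor of mTOR, fell by 2.57 (SE 0.35, adjusted p = 0.0013). It averaged 9.37 in ischemic rats and 11.94 in controls. *Eif4ebp1* and *Larp1* were not past the test without control 63 (adjusted p = 0.027 and 0.0145), whereas *Deptor* was (adjusted p = 0.0053). Of 18 genes of ribosome quality control and stress sensing 5 rose and 1 fell, and without control 63 it was 3 and 1. The kinase *Map3k20*, a sensor of stalled ribosomes, was at 1.69 (SE 0.19, adjusted p = 0.000654), and *Mdm4*, a partner of MDM2 and the gene that fell, named after its value was seen, was at -0.63 (SE 0.11, adjusted p = 0.004). Of 8 tested reference genes of qRT-PCR, *Pgk1*, a glycolytic enzyme, rose by 1.47 (SE 0.15, adjusted p = 0.000467), and the 7 others, among them *B2m* (0.26, adjusted p = 0.437), were not past the test.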

How the data were processed

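Gene expression was measured on 6 Affymetrix Rat Genome arrays of RNA from sorted CD11b+CD163+ cells (3 ischemic and 3 control rats, RIN above 9.2). The authors deposited log2 values made with RMA (background correction, quantile normalization and summary of probes) for 31099 probe sets; the labels' processing notes name limma 3.18 and R 3.3.1. The values were used as deposited. Of the probe sets, 57 were controls, 20826 named 1 symbol and 436 several. Of the 50 members, 48 were found by gene ID in RefSeq and 46 passed the filter (at least 3 arrays above 7.16, the 40th percentile). The groups were compared two-sided with limma 3.58.1 (lmFit, eBayes; R 4.3.3), and p-values were adjusted by Benjamini and Hochberg's method over 9928 genes. The fit was tested on simulated data. No set test was run. Precision is limited by the number of arrays.

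The members and lists were chosen with earlier results of these data known. Named members were the called ones (up to 8 each way), the 5 of highest and 5 of lowest mean, and 2 lists of ribosomal proteins of known role and of paralogs; up to 4 called and 2 other genes came from each further list. Other filters, probe set choices, array scalings, moderation, array weights and thresholds were tried, and each rat was left out in turn. The authors' filter on low variability was not used.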

Additional observations from a re-analysis of the deposited data

How the results depend on the processing

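The number of ribosomal protein genes called higher was 3 in the main fit (6.52%, against 16.8% of all genes). It was 5 with the 60th percentile filter (11.6%, against 22.2% of all genes). The mean of all probe sets of a gene, the probe set of largest interquartile range, and trend and robust moderation also gave 5. In these 3 settings that was 10.9%, against 17.2%, 18.6% and 17.6% of all genes. Array weights gave 8 (17.4%, against 23.9%). In that fit ischemic rat 65 had a weight of 4.90, and the other arrays had weights of 0.41 to 1.31. Arrays centred on reference genes gave 1 (2.17%, against 7.68%). At an adjusted p under 0.05 the number called higher was 13 (28.3%, against 27.4%). It was 0 to 5 when 1 rat was left out. Without ischemic rat 65 it was 0, where 6.86% of all genes were called higher. Without ischemic rat 64 it was 5 (10.9%, against 15.8% of all genes). The number called lower, 0, was 1 with array weights, against 1309 of all 9928 genes. It was 1 at an adjusted p under 0.05, against 13.9% of all genes, and 0 to 1 when 1 rat was left out. The median log2 fold change of 0.40 was 0.12 with the arrays centred on reference genes, among them *Pgk1*, which itself rose by 1.47. This centring moved the median of all genes to -0.17 and the share of rises among all calls to 44.5%. That share was 73.7% in the main fit and 60% with quantile normalization repeated, where the members' median was 0.15. The members' median ranged between 0.14 (without control 63) and 0.55 (without control 68) when 1 rat was left out. *Rpl13a* was at -0.12 with quantile normalization repeated and at -0.072 with the arrays centred on reference genes, and at -0.15 to 0.38 when 1 rat was left out; *Rps23* was at -0.0084 to 0.53. The causes were not tested. For single named members, 330 alternative values kept their direction and side of the threshold, 7 passed it, 9 no longer did and 4 changed sign. No paired analysis was possible because the rats of the groups share no replicate numbers.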
